A study of Drosophila melanogaster with 5 samples.

Results

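H3K18ac was examined at the peaks of Tet (FBgn0263392, 3L from 2786207 to 2879158 in dm6) and tou (FBgn0033636, 2R from 11577485 to 11616045), which both lie on the minus strand. Cut&Run, in which an antibody-tethered nuclease releases the DNA around a histone mark, was performed on w1118 wing discs of the third larval instar from both sexes. The etomoxir group held 2 libraries of discs kept for 2 h in explant culture with 500 µM of the drug, which blocks the entry of long-chain fatty acids into mitochondria and thereby fatty acid β-oxidation (FABO). The control group held 3 libraries, namely 2 from drug-free 2 h explant cultures and 1 from uncultured discs. The deposited table gives each peak 1 mean per group and no value per library, so no spread between discs can be given and no difference was tested here. By the study's own account, a cultured control library held many times the unique reads of each of the others, and the table does not allow the control mean to be given without it. Members were chosen by their assignment to, or position inside, these genes among peaks already selected on a difference between the groups, and both genes were picked with their decreases known. Of the 2626 listed peaks, 15 belonged to the genes, 8 to Tet and 7 to tou. All values below are the authors' group means, given as normalized reads or on the log2 scale, and a difference is the etomoxir minus the control value on the log2 scale.

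TET proteins are dioxygenases that oxidize methylated bases, in mammals mainly 5-methylcytosine in DNA. The fly genome carries very little of that mark, and the fly enzyme has been linked to cytosine hydroxymethylation in messenger RNA and to adenine methylation in DNA. Its longer proteins carry a DNA-binding CXXC zinc finger that its shorter proteins lack. tou (toutatis) encodes a protein related to mammalian TIP5, with PHD fingers and a bromodomain, a fold that in many proteins binds acetylated lysine. It works with the remodelling ATPase Iswi and with the corepressor CtBP, and is known as a positive cofactor of the GATA factor Pannier in neural development. H3K18ac itself is deposited by Nej, the fly CBP/p300 protein, and marks active promoters and enhancers.

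Central sequences of 4 Tet peaks are shown, because these peaks held the largest difference at the gene (peak 2), the smallest (peak 3), the highest control signal (peak 5) and the position at a transcription start (peak 8). Peaks are numbered from the 5′ end of the gene. Each sequence covers 300 bases of dm6 around the centre of the peak, read on the plus strand and taken from the RefSeq copy of this assembly, and capitals mark GAGAG, the core of sites bound by the GAGA factor Trl, or its reverse complement CTCTC. Peak 2 lies in intron 3 (chr3L:2868867-2869166), peak 3 in the same intron (chr3L:2865581-2865880), peak 5 in the next long intron (chr3L:2838362-2838661) and peak 8 just upstream of the start of the shorter transcripts (chr3L:2821217-2821516).
Tet peak 2: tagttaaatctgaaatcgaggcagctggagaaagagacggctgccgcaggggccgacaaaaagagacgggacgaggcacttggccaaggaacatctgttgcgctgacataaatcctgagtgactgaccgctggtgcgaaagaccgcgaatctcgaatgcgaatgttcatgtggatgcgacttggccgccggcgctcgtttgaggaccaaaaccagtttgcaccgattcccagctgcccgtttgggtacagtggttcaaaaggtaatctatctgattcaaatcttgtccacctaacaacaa
Tet peak 3: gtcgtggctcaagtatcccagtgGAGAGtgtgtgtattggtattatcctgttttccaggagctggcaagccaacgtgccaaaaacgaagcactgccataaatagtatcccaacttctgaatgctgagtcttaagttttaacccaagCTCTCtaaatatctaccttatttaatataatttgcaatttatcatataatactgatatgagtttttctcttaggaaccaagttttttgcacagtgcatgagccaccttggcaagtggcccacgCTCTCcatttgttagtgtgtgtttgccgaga
Tet peak 5: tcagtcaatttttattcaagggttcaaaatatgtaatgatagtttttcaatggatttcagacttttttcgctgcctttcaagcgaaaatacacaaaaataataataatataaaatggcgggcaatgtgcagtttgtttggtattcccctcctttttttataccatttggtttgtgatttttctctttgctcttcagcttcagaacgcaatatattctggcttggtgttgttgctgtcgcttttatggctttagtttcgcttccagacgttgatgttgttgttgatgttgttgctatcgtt
Tet peak 8: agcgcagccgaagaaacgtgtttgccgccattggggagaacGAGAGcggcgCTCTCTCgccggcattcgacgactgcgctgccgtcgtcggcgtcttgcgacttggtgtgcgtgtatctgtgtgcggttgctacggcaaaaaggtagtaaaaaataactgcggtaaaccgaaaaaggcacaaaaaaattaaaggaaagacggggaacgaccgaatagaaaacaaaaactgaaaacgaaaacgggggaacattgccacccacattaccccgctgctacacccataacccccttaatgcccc

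GAGAG was searched on both strands, overlapping matches counted, together with CAGGTAG (Zelda), GGAATG (Scalloped) and TATCGATA (Dref) in the 300 central bases of every listed peak. GAGAG was present at 3 Tet peaks (3, 7 and 8) and at 4 tou peaks (1 to 4, those inside the gene), or 46.7% of the 15 against 41.6% of all 2626 listed peaks. At Tet peaks 3 and 8 it occurred 3 times each, and at peak 8 a pair of the matches overlap. tou peak 3 held 7 matches. GGAATG was found at 2 tou peaks and at 15.1% of all listed peaks, CAGGTAG at 1 tou peak against 2.32%, and TATCGATA at 0 of the 15 against 1.29%. Tet peaks 2 and 5 held none of the 4 motifs. The central GC content was 51.7% at peak 2, 41.0% at peak 3, 35.0% at peak 5 and 52.3% at peak 8, with a median of 45.3% over all listed peaks.

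All 8 Tet peaks had a lower H3K18ac signal in etomoxir discs. The differences ran from -2.22 to -1.0 with a median of -1.62, which leaves 32.4% of the control signal. A lower etomoxir mean was found at 83.5% of all listed peaks, and a mean lower by at least 1 on the log2 scale at 57.5%, against 8 of 8 Tet peaks by either measure. The last of the 8 lies on that limit, at -1.0 from values given to 2 decimals. Summed over the 8 peaks, Tet held 220.0 normalized reads in the etomoxir group and 665 in the control group, or 33.1%. Because the peaks were listed for differing, neither count is evidence of a change.

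Tet has 6 annotated transcripts from 2 starts. Tet-RA, RB, RE and RF begin at the 5′ end of the gene and encode the longer proteins, whereas RC and RD begin at 2821103, within a long intron of the others. No listed peak lay within 3000 bases of the first start. The nearest was peak 1, 7801 bases downstream (2870952 to 2871357). It lies wholly within the coding part of exon 2 of all 4 longer transcripts, an exon absent from the shorter ones. Its signal was 18.1 reads in etomoxir and 43.7 in control discs, a difference of -1.27, and its control value was the lowest of the 8. The deposited annotation names it exon 9 of 10, which is exon 2 when Tet-RA is counted from its start.

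Within intron 3 lay both extremes. Peak 2 (2868672 to 2869361) had 16.1 reads in etomoxir against 75.1 in control discs, a difference of -2.22. It lies just downstream of exon 3, and 4.60% of the 2194 listed peaks with a lower etomoxir mean had a more negative difference. Peak 3 (2865236 to 2866224), 2447 bases further along, had 47.5 reads in etomoxir against 95.0 in control discs. This was the highest etomoxir value of the gene. The 2 neighbours thus kept 21.5% and 50.0% of their control signal. With no values per library, this contrast cannot be set against a spread.

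The other 5 peaks lay in a later long intron, number 4 of Tet-RA and RB and number 5 of RE and RF. Peak 4 (2847086 to 2848182) had 32.9 reads in etomoxir and 108.4 in control discs, a difference of -1.72. Peak 5 (2837858 to 2839164) was the widest of the gene, at 1307 bases, and had 36.5 reads in etomoxir against 134.4 in control discs, a difference of -1.88. These peaks lie 25983 and 16755 bases upstream of the second start, and they were the strongest of the gene in control discs. Together they held 69.4 reads in etomoxir against 242.7 in control discs, 28.6% of the control signal.

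At the second start, which gives the shorter transcripts, 3 peaks followed one another with nearly the same difference. Peak 8 (2821112 to 2821620) begins 9 bases upstream of it and had 17.6 reads in etomoxir against 55.3 in control discs, a difference of -1.65. Peak 7 begins 2002 bases upstream, with 19.0 reads in etomoxir and 57.7 in control discs (-1.60). Peak 6 begins 2998 bases upstream and just inside the 3000 base limit of the promoter annotation, with 32.2 reads in etomoxir and 95.7 in control discs (-1.57). The promoter annotation thus belongs to the start of the shorter transcripts, while the same bases are intronic in the longer ones. As a group these 3 peaks kept 33.0% of their control signal and the 5 others 33.1%.

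**Figure D1:**
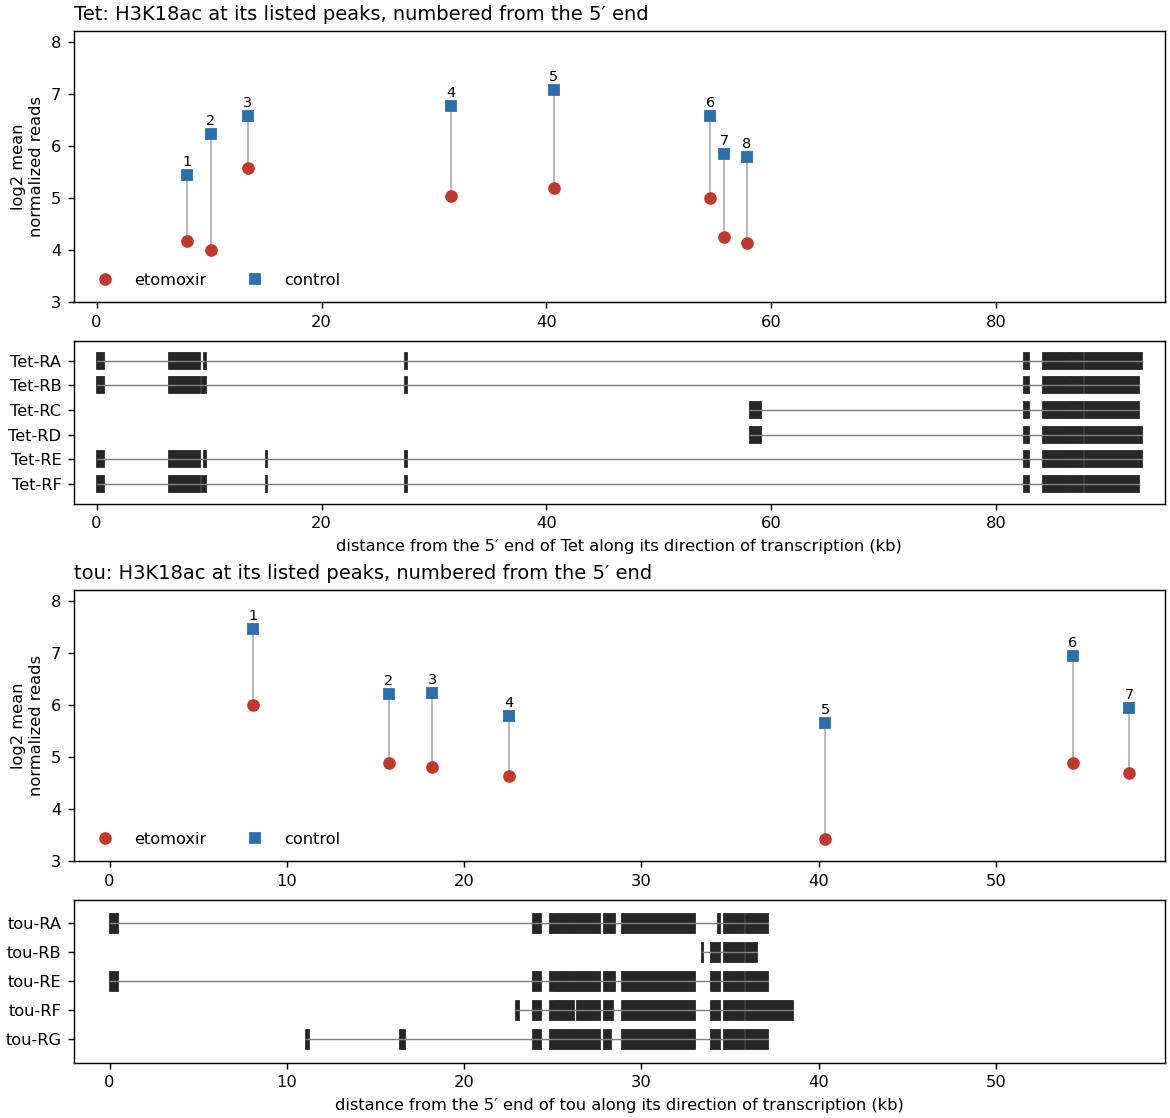
H3K18ac at the 8 Tet peaks (upper panels) and the 7 tou peaks (lower panels), with the group means of etomoxir (red circles) and control (blue squares) on the log2 scale against the distance of the peak centre from the 5′ end in kb, above the annotated transcripts (boxes are exons). Etomoxir lies below control at all 15 peaks, Tet peak 2 shows the longest and peak 3 the shortest line of that gene, and tou peaks 5 to 7 lie beyond the 3′ end of tou.

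All 7 tou peaks were lower in etomoxir discs too, each by at least 1 on the log2 scale, where 83.5% of all listed peaks were lower and 57.5% by that much. Their median difference was -1.42, or 37.4% of the control signal, with a range from -2.21 to -1.15. Summed, they held 212.8 reads in the etomoxir group and 615 in the control group (34.6%). The 7 fall into 4 peaks inside the gene and 3 beyond its 3′ end.

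tou has 5 transcripts from 4 starts, and the peaks inside the gene all lie in introns. Peak 1 (11607210 to 11608732), in intron 1 of tou-RA and RE and 2274 bases upstream of the tou-RG start, was the widest of the 15 at 1523 bases. It had 64 reads in etomoxir against 176.1 in control discs, a difference of -1.46, and both values were the highest of the 15. Peak 2 (11599952 to 11600652) had 29.7 reads in etomoxir and 74.5 in control discs (-1.33). Peak 3 (11597561 to 11598130) had 28.1 reads in etomoxir and 75.1 in control discs (-1.42), so these 2 neighbours were close in both groups. Peak 4 (11593228 to 11593853), 102 bases upstream of the tou-RF start, had 24.8 reads in etomoxir and 54.9 in control discs (-1.15), the smallest difference of the gene. No listed peak lay within 3000 bases of the first start, as at Tet, nor within that distance of the start of the shortest transcript, tou-RB.

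The 3 peaks beyond the 3′ end spread more widely. Peak 5 (11575434 to 11575934), 1550 bases past the end of the gene, had 10.9 reads in etomoxir against 50.2 in control discs, a difference of -2.21. Its etomoxir value was the lowest of the 15. Peak 6 (11561170 to 11562282) had 29.7 reads in etomoxir and 121.9 in control discs (-2.04), and peak 7 (11558193 to 11558876) had 25.8 in etomoxir and 61.8 in control discs (-1.26). Peaks beyond the end kept 28.3% of the control signal in sum and those inside the gene 38.5%, but peak 7 falls within the range of differences inside the gene.

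Whether these 3 belong to tou depends on the annotation. They were assigned through the start of tou-RB, which lies 6701, 20353 and 23759 bases from peaks 5, 6 and 7. The next start, that of tou-RF, is 34250 bases from peak 7, whereas the start of en is 29983 bases away. Without tou-RB, peak 7 would have been assigned to en. Peak 6 would have stayed with tou by a small margin, 30844 against 32960 bases, and peak 5 clearly, 17192 against 47224. Distance alone does not show which gene an element serves.

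No annotated gene lies between tou and en, which encodes the homeodomain protein Engrailed of the posterior compartment. The stretch from E(Pc) across inv and en to tou is known as a Polycomb-repressed domain in cells that do not express en. Beyond tou peak 7, the next listed peak began after a gap of 7161 bases and was assigned to en. It had 16.3 reads in etomoxir and 93.1 in control discs, a difference of -2.51. All 6 peaks assigned to en were lower in etomoxir discs, from -2.51 to -1.56 with a median of -1.92. The 13 listed peaks assigned to tou or en form a row without a single higher value, where 83.5% of all listed peaks were lower. Of these 13, 7 lie between the genes, 3 assigned to tou and 4 to en. Differences of tou peaks 5 and 6 fall within the range of the en peaks and that of peak 7 outside it.

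**Figure D2:**
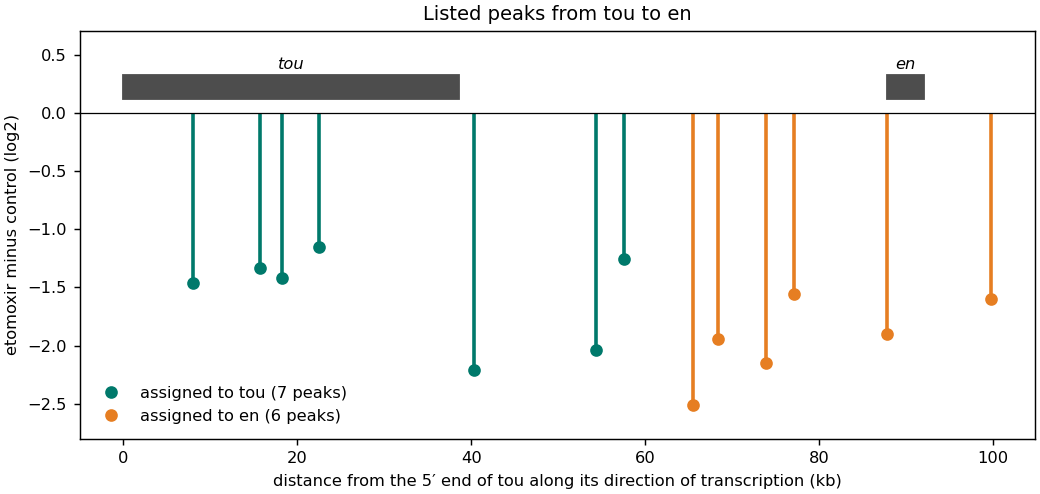
Etomoxir minus control on the log2 scale at the 13 listed peaks assigned to tou (green) or en (orange), against the distance in kb from the 5′ end of tou; grey bars are the genes. The 4 peaks inside tou lie between -1.46 and -1.15, and 7 peaks between -2.51 and -1.26 fill the interval between tou and en.

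On the other flanks, few peaks were listed. Past the 5′ end of tou, the nearest listed peak was 215339 bases from the gene, assigned to CG13192 and with a difference of -1.10. Past the 3′ end of Tet, the nearest was 297365 bases from the gene, at the CG1146 promoter, with a difference of -0.79. Past the 5′ end of Tet, 14080 bases from the gene, a peak 238 bases upstream of the start of Shab, a voltage-gated potassium channel gene, went the other way. It had 415.9 reads in etomoxir and 42.8 in control discs, a 9.71-fold higher value. The lower values at Tet thus did not extend to this neighbour.

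Among all 2626 listed peaks, the 15 had a median difference of -1.57, against -1.08 over all of them and -1.19 over the 2194 with a lower etomoxir mean. Their median control value was 6.23 on the log2 scale, against 6.61 over all listed peaks, and their median width 690 bases, against 941. By these medians, the 15 were narrower and weaker than the listed peaks as a whole, with a more negative difference. Only 5 of the 15 (33.3%) lay within 3000 bases of a start of their own gene, against 65.7% of all listed peaks and their assigned start. Across the 15 peaks, the control value and the difference were hardly related (Pearson's r = -0.14, a description over peaks that share the 5 libraries). The same relation over all listed peaks was not computed, and the value for the 15 does not stand for it.

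**Figure D3:**
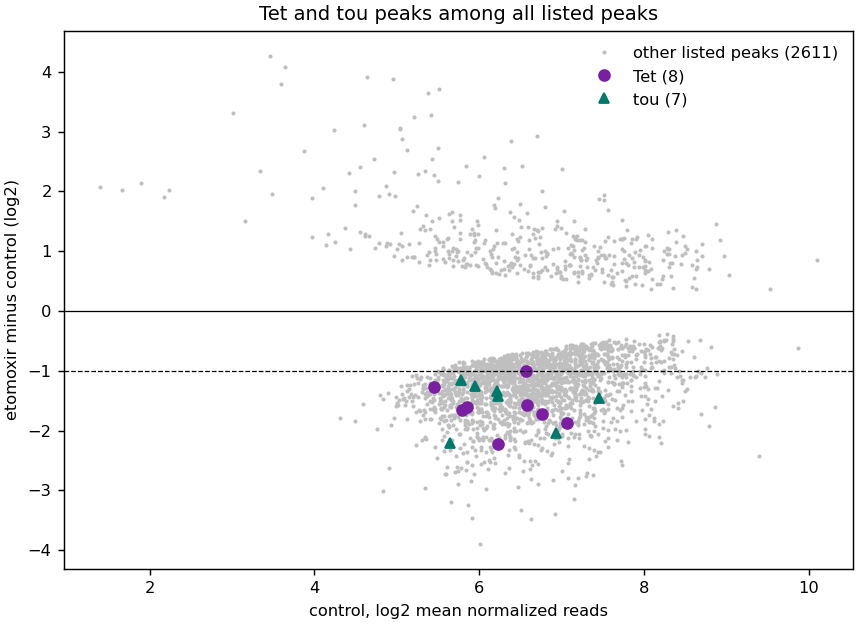
Etomoxir minus control against the control value, both on the log2 scale, at the 8 Tet peaks (purple), the 7 tou peaks (green) and the other listed peaks (grey); the dashed line marks -1. All 15 lie on or below that line, and only peaks that differed are listed, which leaves a gap around 0.

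Gene length bears on such counts, since a long gene can hold more peaks. Of 63 protein-coding genes between 80 and 110 kb, Tet included, 28 had no lower peak inside, the median was 1, and 2 other genes had 8 or more. Of 167 protein-coding genes between 35 and 45 kb, 110 had none, and 10 others had at least the 4 found inside tou. Peaks covered 6.99% of Tet and 8.87% of tou.

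A total of 41 genes had at least 5 assigned peaks, and their medians had a median of -1.42. A more negative median was found at 13 of these genes for Tet and at 20 for tou, so neither stood at an end of the list. Closest to Tet in this median, over the 2 group means, were lncRNA:CR43681 (-1.65), lncRNA:CR44859 (-1.66) and sbb (-1.67), each with 5 peaks, all lower. Closest to tou were bi, a T-box gene that acts downstream of Dpp (-1.42), ush, which encodes a Friend-of-GATA cofactor of Pannier (-1.41), and zfh2, a zinc finger homeobox gene (-1.40). All peaks of these 3 were lower as well, as at 36 of the 41 genes compared.

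Other genes of chromatin regulation were taken from a list of 92 found in the annotation. This list was drawn up with earlier results of these data known, so its shares are a description and no evidence about chromatin regulators. A lower peak was assigned to 14 of the 92 genes (15.2%), against 7.89% of all 13986 protein-coding genes. A higher one was assigned to 2 (2.17%), against 2.01%. The other 76 had no listed peak, and whether they carried the mark is unknown. None had more than 5 peaks. The 28 peaks of the list had a median difference of -1.41, with 25 lower and 3 higher, where 83.5% of all listed peaks were lower.

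The Polycomb group held the largest differences of the list. Of its 15 genes, 4 had a lower peak and 1 a higher one, and the rest had none listed. Su(z)2, a paralogue of the PRC1 subunit gene Psc, had 5 lower peaks from -3.20 to -1.39. Their median of -2.8 lay beyond that of Tet and of tou. The peak at -2.94 is annotated as promoter, at 0 bases from the assigned start, and that at -1.39 as exon. The peaks at -3.20, -2.8 and -1.84 are annotated as distal intergenic, 14214, 18326 and 15293 bases from the assigned start. Distance alone does not tie these distal peaks to Su(z)2, and the first of them had an etomoxir value of only 2.46 on the log2 scale. Psc had 2 lower peaks at -1.89 and -1.54, ph-d 2 at -2.12 and -0.88 and ph-p 1 at -2.37. In contrast, pho, which encodes a protein that binds Polycomb response elements and lies on chromosome 4, had 2 higher peaks (1.21 and 0.86). Of the 17 genes of the Trithorax group and of histone methylation, 2 had a lower peak, trx at -2.33 and the demethylase gene Kdm2 at -0.86, and 1 had a higher peak, the H3K4 methyltransferase gene Set1 at 1.04. Among the 11 genes of SWI/SNF, CHD and INO80 remodelling, the CHD-type remodeller gene kis alone had a listed peak, at -2.33.

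Of the proteins named above as working with Tou, CtBP had 2 lower peaks annotated as promoter, at -1.26 and -1.0. Iswi and pnr, the gene of Pannier, had none listed. None of the 6 other ISWI family genes on the list, Iswi included, and none of the 5 other nucleic acid modification genes had a listed peak. Of the 15 repressor and cofactor genes on the list, 4 had a lower peak, CtBP among them, and 0 a higher one. The GAGA factor gene Trl had 2 lower peaks (-1.69 and -1.43), psq, whose protein binds the same motif, 3 from -1.62 to -1.31, and lola 2 at -1.48 and -1.39. Of the 5 bromodomain reader genes, 2 had a lower peak and 0 a higher one. Among the enzymes that set or remove acetylation, 0 of 8 acetyltransferase genes had a listed peak, nej, Gcn5 and Elp3 among them, and 1 of 10 deacetylase genes did, HDAC4 (-0.71) but not HDAC1. Over all protein-coding genes, 7.89% had a lower and 2.01% a higher assigned peak, so counts this small say nothing about these enzymes.

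**Figure D4:**
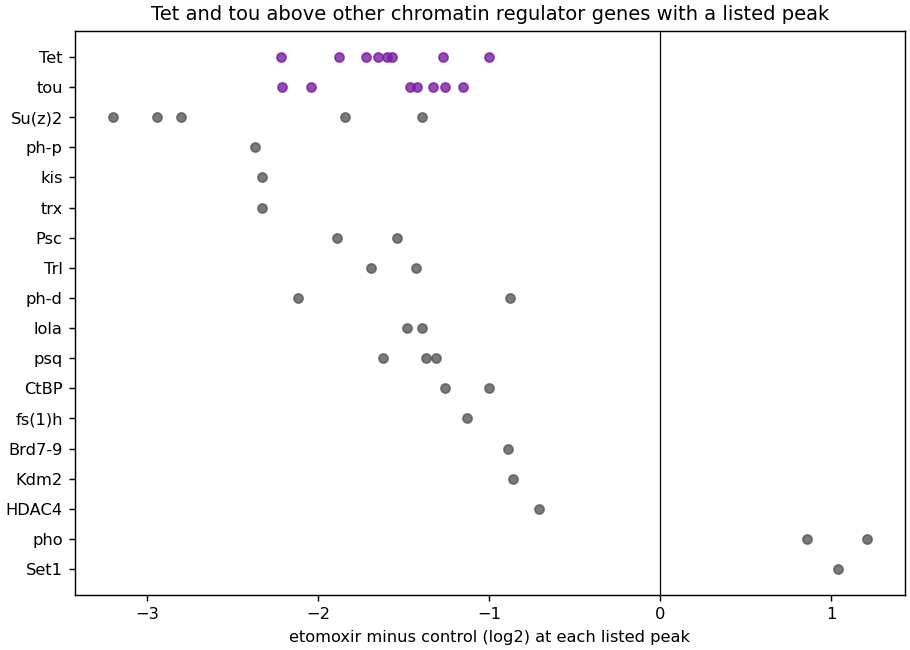
Etomoxir minus control on the log2 scale at each listed peak of Tet and tou (purple, top) and of the 16 other chromatin regulator genes with a listed peak (grey), sorted by median. Su(z)2 reaches -3.20 at a peak annotated as distal intergenic and -2.94 at a promoter peak, and pho and Set1 are the genes above 0.

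Of 8 genes that mark the wing disc epithelium, 6 had a listed peak, against 1 of 3 myoblast, 1 of 2 tracheal, 0 of 2 haemocyte and 0 of 1 neuronal marker genes. Over all protein-coding genes, 7.89% had a lower and 2.01% a higher assigned peak. Because only differing peaks are listed, this does not measure which cells were present. In whole discs, fewer cells with the mark and less of it per cell cannot be told apart. Both etomoxir libraries were cultured, and so were 2 of the 3 control libraries; the part of culture in these differences was not tested.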

How the data were processed

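Per the labels and the paper's methods, the authors trimmed the reads with Trim Galore 0.6.3, aligned them to dm6 with Bowtie2 2.4.2, removed duplicates, called peaks with MACS2 2.1.1.20160309.6, used DiffBind 2.10.0 to compare groups and ChIPseeker 1.18.0 for annotation. The deposited log2 values used here are mean normalized read counts per peak for each group, and the scaling between libraries is not given in the sources used here. Per the paper's methods, spike-in DNA from yeast was added, but whether it set the scaling is not stated. The percentages of control signal given above hold only on this unstated scale. At 100% of peaks the overall value matched, to 0.02, a mean weighting control by 3 libraries and etomoxir by 2, so the uncultured discs are part of the control mean. All listed peaks have an FDR under 0.05. The authors' fold changes, p-values and FDRs were otherwise not used. The deposited table holds no depth per library; the study states read totals for each, in which a cultured control library stands far above the others in unique reads, and they were not used here, so the precision of single values was not measured.

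Starts were raised by 1, since the table counts from 0, and 965 of 965 distances compared then matched exactly. Differences of group means, transcript positions (Ensembl release 115, identifiers of 98.2% of assigned genes found) and motifs were computed with Python 3.11.15, numpy 2.4.6 and pandas 2.3.3. The motif search and the merging of peaks were checked on simulated data.

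Members and lists were chosen with earlier results of these data known. The genes named are those to which peaks of Tet and tou, or the next listed peaks beside them, were assigned, the 3 genes nearest to each by median, and from the list of chromatin genes those with the most peaks, the 3 with the most negative and the 3 with the most positive differences, and nej, HDAC1, Gcn5 and Elp3. Beyond that rule, Iswi, pnr, inv and E(Pc) are named without values, and HDAC4 as the only deacetylase gene with a peak and Kdm2 to complete its class. Symbols of 2 list entries were not matched.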

Additional observations from a re-analysis of the deposited data

How the results depend on the processing

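No paired analysis was possible because the table gives 1 mean per group and no value per library, and for the same reason no library could be left out. Of 30 alternatives, 24 left the value within the spread between peaks of the gene or within 1.5 times the count. A reversed direction was not possible, since every alternative used the same 15 peaks or a part of them, all of them lower. The alternatives thus show how far the values move and are no further support for a decrease. Over 14 alternatives of assignment, merging, level and summary, the difference ran from -1.72 to -1.60 for Tet and from -1.55 to -1.38 for tou. The end at -1.60 is the ratio of summed reads and that at -1.55 the mean over peaks, not a median. Asking for a control value of at least 6 on the log2 scale left 5 Tet and 4 tou peaks, and counting only peaks inside the gene left 4 for tou. Promoter counts moved most: with 1000 bases from a start 1 peak of Tet and 1 of tou remained, and with the peak centre within 3000 bases 1 of tou did. The lowest etomoxir values, 10.9 to 19.0 normalized reads, were those of Tet peaks 1, 2, 7 and 8 and tou peak 5, and the precision of their differences was not measured.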
